A study of Mus musculus with 12 samples.

Results

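The glucocorticoid response genes described here are Fkbp5, Tsc22d3, Zbtb16, Klf9, Cebpd, Sgk1, Dusp1, Ddit4, Pdk4 and Angptl4. They were taken by gene symbol, and every probe set that the array annotation assigns to a single one of these symbols was kept. That gave 25 of the 45037 probe sets other than controls, for 10 of the 18193 genes with such a probe set. Klf9 had 7 probe sets, Tsc22d3 had 4, Fkbp5 and Zbtb16 had 3 each, Cebpd and Angptl4 had 2 each, and Sgk1, Dusp1, Ddit4 and Pdk4 had 1 each.

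Lung and liver were taken from female NOD/SCID mice, an immunodeficient strain without mature T and B cells, that were 8 to 10 weeks old when the experiments began. The mice were virgin or at day 16 of pregnancy, which gave 4 groups. Each group held 3 one-colour expression arrays, and each array measured pooled RNA from 2 mice. The mice of all groups carry the same NOD/SCID background, and the labels describe no treatment or transgene. Since every value is that of a pool, the p-values measure the spread between pools, and whole tissue gives no separation of fewer cells of a type from less RNA per cell.

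Glucocorticoids, in mice mainly corticosterone, bind the glucocorticoid receptor, which waits in the cytoplasm in a complex with chaperones and then moves to the nucleus, where it binds DNA and changes transcription. The genes it raises in many tissues include its own chaperone Fkbp5, regulators that damp inflammation (Tsc22d3, Dusp1), transcription factors (Klf9, Zbtb16, Cebpd) and genes of fuel use (Pdk4, Angptl4). In liver the hormone promotes the making of glucose, and in lung it damps inflammation and drives maturation of the fetal epithelium. Several of these genes also answer to other signals: Pdk4 and Angptl4 to fatty acids through PPAR receptors, Ddit4 to low oxygen and energy stress, and Dusp1 and Cebpd to acute stimulation. Hormone levels were not analysed here.

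The sequences before the start sites show which of these genes carry the receptor's own recognition letters close by. Windows of 250 bases upstream of a start site were read from RefSeq sequences of build GRCm38.p6, which held 14 windows for 7 of the 10 genes. Zbtb16, Cebpd and Angptl4 were not among them. The full palindrome, spelled GNACA, then any 3 bases, then TGTNC, occurred in 1 of the 14 windows, that of start site 5 of the 6 of Sgk1, against 0.387% of all 32851 distinct windows. The shorter letters AGAACA, a single arm of the palindrome, were searched on both strands and occurred in 4 windows, against 16.1% of all windows. These were the window of start site 3 of Tsc22d3 and those of start sites 1, 4 and 5 of Sgk1. In the last of these, 2 of its 3 arms overlap the full match. The letters AGGTCA, repeated after any 1 base, which PPAR receptors bind, occurred in none of the 14 windows and in 0.0335% of all windows. The letters TGACGTCA, bound by cyclic AMP responsive factors, occurred in the Dusp1 window and in 1.55% of all windows. The windows of Sgk1 (chr10:21993640-21993889, plus strand) and Dusp1 (chr17:26508473-26508722, minus strand) are shown for these matches, 5′ to 3′, with the matches to any of the searched letters in capitals.
Sgk1: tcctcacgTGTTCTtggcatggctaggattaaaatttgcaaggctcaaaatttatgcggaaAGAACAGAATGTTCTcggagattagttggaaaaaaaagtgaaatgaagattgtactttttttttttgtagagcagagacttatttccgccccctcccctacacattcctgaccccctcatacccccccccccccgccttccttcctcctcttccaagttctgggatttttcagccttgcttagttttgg
Dusp1: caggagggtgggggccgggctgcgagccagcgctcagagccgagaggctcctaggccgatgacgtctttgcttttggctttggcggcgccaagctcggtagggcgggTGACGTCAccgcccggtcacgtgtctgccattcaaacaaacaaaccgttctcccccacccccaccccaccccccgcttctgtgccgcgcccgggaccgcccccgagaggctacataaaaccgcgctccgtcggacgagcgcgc
In the Sgk1 window, that of start site 5, the full match lies 188 to 176 bases before the start site, and in the Dusp1 window the match lies 143 to 136 bases before it. A match of letters is a description of the window and says nothing of binding in these tissues.

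Before the comparisons, the arrays were checked as a whole. Array medians lay between 4.49 and 4.56 on the log2 scale, and arrays of a group correlated at 0.9917 to 0.9961. Markers of lung epithelium summed to 79340 to 84350 on the linear scale in the lung arrays and to 133.4 to 145.7 in the liver arrays, and hepatocyte markers to 92220 to 96470 in liver and to 316.2 to 459.6 in lung. RNA spiked in before labelling had a mean log2 signal of 11.84 to 12.34 on 10 arrays, but of 4.95 on virgin liver pool 3 and 5.33 on pregnant liver pool 3. For members whose liver change differed by over 1.5 times between pools 1 and 2 and pool 3, both values are given for the probe sets described sample by sample.

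In pregnant lung 3 of the 25 probe sets rose, 0 fell and 22 did not pass (limma on log2 values, Benjamini-Hochberg adjusted p under 0.05 over all 45037 probe sets). The risers were 1 probe set each of Fkbp5, Zbtb16 and Angptl4. Of all probe sets tested, 0.0977% rose, 0.115% fell and 0.213% changed in either direction. The median log2 change of the 25 was 0.30, against 0.00 for all probe sets, and 22 of them had a positive change. For 13 of the 25 the 3 pregnant pools all lay above the 3 virgin pools, where 7.24% of all probe sets did so, and for 0 they all lay below, where 8.32% did.

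In pregnant liver 2 of the 25 probe sets rose, 0 fell and 23 did not pass. These were 1 probe set of Zbtb16 and that of Ddit4. Of all probe sets tested in liver, 3.7% rose, 4.46% fell and 8.16% changed. The median log2 change of the 25 was 0.16, with 17 positive and 8 negative. The pregnant pools lay above all virgin pools for 8 of the 25, where 10.8% of all probe sets did so, and below them for 1, where 11.8% did. The difference between the lung and the liver change passed for 1 of the 25, that of Pdk4, where 3.42% of all probe sets passed. Markers of other cells moved in the same liver pools: of 4 neutrophil markers S100a8 and S100a9 rose (by 1.502 and 1.28, adjusted p = 0.00011 and 0.000229), with sums of 286.3 to 311.9 in virgin and 652.9 to 844.6 in pregnant pools. Of 3 erythroid markers Alas2 rose (by 1.16, adjusted p = 1.94e-05), with sums of 186.3 to 202.1 and 341.9 to 453.1. Their part in the liver values of Zbtb16 and Ddit4 was not tested.

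**Figure D1:**
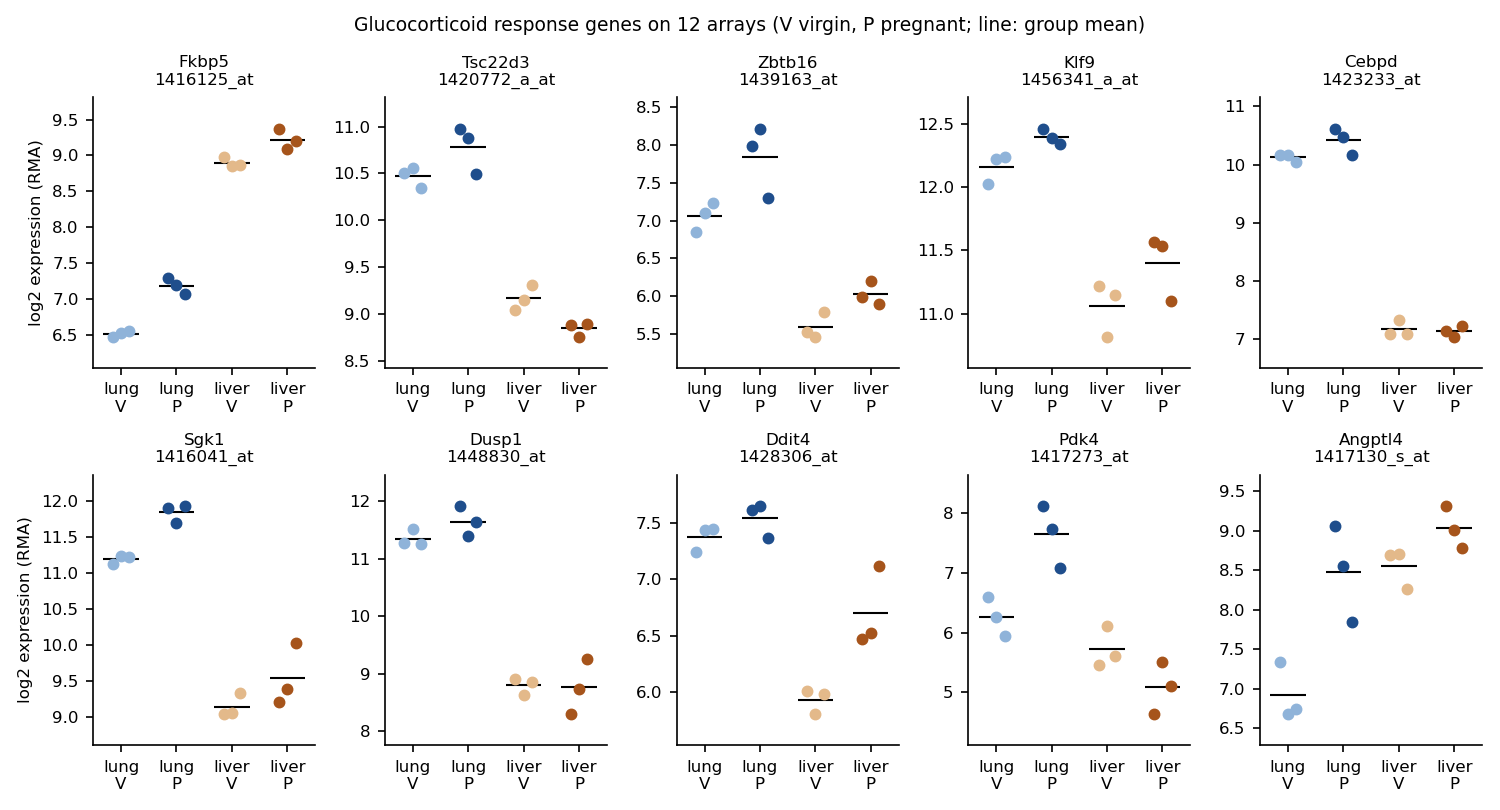
Log2 expression on each of the 12 arrays for the probe set of each gene with the highest mean level, with the 4 groups on the horizontal axis, 1 point per array (n = 3 per group) and a line at the group mean. Each panel has its own vertical scale, which does not start at 0. Pregnant lung lies above virgin lung without overlap for Fkbp5, Zbtb16, Klf9, Sgk1, Pdk4 and Angptl4, and pregnant liver above virgin liver for Fkbp5, Zbtb16, Ddit4 and Angptl4.

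Fkbp5 encodes a co-chaperone that lowers the hormone affinity of the receptor, and its induction is a common readout of receptor activity. Its probe set 1416125_at had log2 values of 6.47, 6.52 and 6.55 in virgin lung and of 7.29, 7.19 and 7.07 in pregnant lung. The groups did not overlap, and the lowest pregnant pool lay above the highest virgin pool by more than the range within either group. The change was 0.67 ± 0.10 (log2 ± SE, n = 3, adjusted p = 0.0138), or 1.59-fold. In liver the same probe set had 8.98, 8.85 and 8.87 in virgin and 9.37, 9.09 and 9.20 in pregnant pools. These groups did not overlap either, but the change of 0.32 ± 0.10 did not pass (adjusted p = 0.0691). This liver change passed in 4 of 19 alternatives. They were the brightest probe set per gene (adjusted p = 0.0394), no dim probe sets (0.0359), quantile normalization within tissue (0.0457) and a variance trend (0.0365). The difference between the tissues was 0.35 with a 95% interval of 0.04 to 0.65 and did not pass (adjusted p = 0.264).

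The other Fkbp5 probe sets did not show this change. For 1448231_at the lung change was 0.10 (95% interval -0.14 to 0.35) and the liver change 0.12, at mean levels of 5.02 and 6.72 in virgin lung and liver. The third, 1447736_at, had means of 2.08 to 2.41 in the 4 groups, below 4.53, the median of all values, where signal above background is not shown, and its lung change was -0.14. The lung call of 1416125_at was lost when virgin pool 1, 2 or 3 or pregnant pool 1 or 2 was left out (adjusted p = 0.0514, 0.0758, 0.0597, 0.0755 and 0.0611), with changes of 0.615 to 0.686. Only without pregnant pool 3 did it pass among these 6 fits.

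Zbtb16, also called PLZF, encodes a zinc finger repressor that is strongly induced by glucocorticoids in many human and mouse cells. Its probe set 1419874_x_at had 6.45, 6.92 and 6.88 in virgin lung and 7.72, 7.70 and 7.45 in pregnant lung, with no overlap. The change was 0.87 ± 0.14 (log2, SE, n = 3, adjusted p = 0.0164), or 1.83-fold. In liver it had 4.57, 4.37 and 4.43 in virgin and 4.86, 5.13 and 5.21 in pregnant pools, again with no overlap, and a change of 0.61 ± 0.14 (adjusted p = 0.0128), with 0.52 within pools 1 and 2 and 0.78 within pool 3. The virgin liver mean of 4.46 lay below the median of all values. It was the only one of the 25 probe sets that rose in both tissues, and its lung and liver changes differed by 0.27 (95% interval -0.15 to 0.69, adjusted p = 0.60).

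The Zbtb16 probe set with the highest mean level, 1439163_at, had 6.85, 7.10 and 7.23 in virgin lung and 7.99, 8.22 and 7.30 in pregnant lung. Pregnant pool 3 lay just above the highest virgin pool, and the change of 0.78 ± 0.19 did not pass (adjusted p = 0.138). Without pregnant pool 3 it was 1.05 and passed (adjusted p = 0.0127). In liver the change of 0.43 did not pass (adjusted p = 0.205), at 0.60 for pools 1 and 2 and 0.10 for pool 3. The third probe set, 1427638_at, changed by 0.42 in lung and by -0.07 in liver, and neither passed (adjusted p = 0.338 and 0.833). The lung call of 1419874_x_at was lost without virgin pool 1 or 3 or pregnant pool 1 or 2 (adjusted p = 0.0514, 0.0529, 0.084 and 0.0762), and its liver call without virgin pool 2 (0.0526) or without both liver pools 3 (0.0981). With lung arrays fitted alone the lung adjusted p was 0.0501. The suffix of this probe set marks sequence that other transcripts may share.

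Tsc22d3, also called GILZ, encodes a leucine zipper protein that carries part of the anti-inflammatory action of glucocorticoids. Its probe set with the highest mean level, 1420772_a_at, had 10.50, 10.56 and 10.35 in virgin lung and 10.98, 10.88 and 10.50 in pregnant lung. Pregnant pool 3 lay within the virgin range, and the change of 0.32 ± 0.13 did not pass (adjusted p = 0.538). In liver the values ran the other way, from 9.04, 9.15 and 9.31 in virgin to 8.88, 8.76 and 8.90 in pregnant pools. These groups did not overlap, and the change of -0.32 ± 0.13 did not pass (adjusted p = 0.149), with -0.28 within pools 1 and 2 and -0.42 within pool 3. The difference between the tissues was 0.64 with a 95% interval of 0.26 to 1.02 (adjusted p = 0.0699). It passed in 4 of 23 alternatives: without lung pregnant pool 3 (0.78, adjusted p = 0.0162), with the brightest probe set per gene (0.0434), without dim probe sets (0.0429) and with a variance trend (0.0143).

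A further Tsc22d3 probe set, 1425281_a_at, had a lung change of 0.36 and a liver change of -0.29, with a difference of 0.65 that did not pass (adjusted p = 0.23). The other 2, 1425557_x_at and 1444365_at, changed by -0.13 and 0.10 in lung, and the latter stayed below the median of all values in every group. Tsc22d3 is abundant in lymphoid cells. Of 6 measured T and B cell markers 0 rose and 1 fell in liver, Ighm, the immunoglobulin mu chain gene (by 1.57, adjusted p = 3.39e-05). The other 5 had positive liver changes that did not pass. The summed level of the 6 was 1417 to 1668 in virgin and 586.4 to 764.9 in pregnant liver. In lung the sum was 357.4 to 371.6 in virgin and 283.2 to 356.7 in pregnant pools, with 3 positive and 3 negative changes. The part of these cells in the Tsc22d3 values was not tested.

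Klf9 encodes a Krüppel-like transcription factor that glucocorticoids and thyroid hormone induce. None of its 7 probe sets passed in either tissue. In lung 6 of the 7 had pregnant pools entirely above the virgin pools, with changes of 0.23 to 0.50, and the seventh, 1452723_at, had -0.11 at levels below the median of all values. For 1428288_at the lung values were 11.32, 11.47 and 11.58 in virgin and 11.82, 11.78 and 11.76 in pregnant pools. Its change was 0.33 ± 0.13 (adjusted p = 0.509), and that of 1422264_s_at, the largest of the 7, was 0.50 ± 0.12 (adjusted p = 0.125). The latter passed in 1 of 16 alternatives, with array weights (0.494, adjusted p = 0.0344).

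In liver all 7 Klf9 changes were positive, from 0.12 to 0.41. The values of 1428288_at were 10.54, 10.10 and 10.55 in virgin and 10.91, 10.88 and 10.63 in pregnant liver, where pregnant pool 3 lay nearest to the virgin pools. The change of 0.41 ± 0.13 did not pass (adjusted p = 0.064), and it was 0.58 within pools 1 and 2 and 0.08 within pool 3. For 1456341_a_at the corresponding changes were 0.53 and -0.05, and for 1428289_at 0.54 and 0.01. These 3 probe sets passed without both liver pools 3 (adjusted p = 0.0323, 0.0414 and 0.0221) and without pregnant pool 3 alone (0.037, 0.0311 and 0.0285). With all arrays kept, 1428288_at also passed without dim probe sets (0.0407), with quantile normalization within tissue (0.0465) and with a variance trend (0.0167). The variance trend also called 1428289_at (0.0179). The lung and liver changes of the 7 probe sets differed by -0.22 to 0.34, and none of these differences passed.

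Cebpd, a transcription factor gene that responds to glucocorticoids and to inflammatory signals, showed no change that passed. Its probe set 1423233_at had 10.16, 10.16 and 10.05 in virgin and 10.62, 10.48 and 10.16 in pregnant lung, a change of 0.30 ± 0.12 (adjusted p = 0.561) in which pregnant pool 3 lay at the upper end of the virgin range. In liver the change was -0.03 (95% interval -0.29 to 0.23), from -0.11 for pools 1 and 2 and 0.14 for pool 3. The other probe set, 1456605_at, changed by 0.10 in lung and by -0.05 in liver.

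Sgk1 encodes a kinase that regulates sodium channels and other transporters and is induced by glucocorticoids and mineralocorticoids. It had log2 values of 11.12, 11.23 and 11.21 in virgin lung and 11.90, 11.69 and 11.93 in pregnant lung. The groups stood apart by more than their ranges, and the change of 0.65 ± 0.17 did not pass (adjusted p = 0.168). In liver it had 9.05, 9.06 and 9.33 in virgin and 9.21, 9.39 and 10.02 in pregnant pools, where the groups overlapped. The liver change was 0.39 ± 0.17 (adjusted p = 0.187), with 0.24 within pools 1 and 2 and 0.70 within pool 3. With the 6 lung arrays fitted alone the lung change passed (adjusted p = 0.0385), as it did with the liver pools 3 as a batch block (0.0328), without both liver pools 3 (0.0277) and with array weights (0.0336). With that batch block the liver change of Sgk1 also passed (adjusted p = 0.0457). The lung change thus passed in 4 of 19 alternatives and the liver change in 1 of 19.

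Dusp1 encodes a phosphatase that switches off stress-activated kinases. It had 11.28, 11.51 and 11.26 in virgin and 11.92, 11.39 and 11.63 in pregnant lung, and pregnant pool 2 lay within the virgin range. The change was 0.30 ± 0.20 (adjusted p = 0.866). In liver the change was -0.03 with a 95% interval of -0.45 to 0.38, and it was -0.25 within pools 1 and 2 and 0.40 within pool 3.

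Ddit4, also called REDD1, encodes an inhibitor of the growth kinase mTORC1. It rose in liver, from 6.01, 5.80 and 5.98 in virgin to 6.47, 6.52 and 7.12 in pregnant pools. The groups did not overlap, and pregnant pool 3 was the highest. The change was 0.77 ± 0.15 (log2, SE, n = 3, adjusted p = 0.00473), or 1.71-fold, with 0.59 within pools 1 and 2 and 1.14 within pool 3. It passed in all 19 alternatives, with adjusted p of 0.0012 to 0.0311. In lung the values were 7.25, 7.44 and 7.45 in virgin and 7.61, 7.65 and 7.37 in pregnant pools, which overlapped, and the change was 0.17 (95% interval -0.16 to 0.49). The difference between the tissues was -0.61 ± 0.22 and did not pass (adjusted p = 0.174).

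Pdk4 encodes the kinase that shuts down pyruvate dehydrogenase and so spares glucose when fat is burned. In virgin lung it had 6.61, 6.26 and 5.95, and in pregnant lung 8.13, 7.74 and 7.08. The groups did not overlap, with pregnant pool 3 the lowest of the pregnant pools. The change of 1.38 ± 0.26 narrowly missed the threshold (adjusted p = 0.0509). In liver the values were 5.46, 6.12 and 5.61 in virgin and 4.64, 5.50 and 5.11 in pregnant pools, and the change of -0.64 ± 0.26 did not pass (adjusted p = 0.172).

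The lung change of Pdk4 exceeded its liver change by 2.02 ± 0.37 (log2, SE, adjusted p = 0.00619), with a 95% interval of 1.22 to 2.82. This difference passed in all 24 alternatives, with values of 1.78 to 2.30 and adjusted p of 7.71e-05 to 0.0273. The lung change itself passed in 8 of 19 alternatives, among them the test of 1 probe set per gene (adjusted p = 0.0369) and the fit without pregnant pool 3 (1.66, adjusted p = 0.0176). It ranged from 1.14 to 1.66 when single lung arrays were left out.

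Angptl4 encodes a secreted inhibitor of lipoprotein lipase, which limits the uptake of fat from the blood. Its probe set 1417130_s_at had 7.34, 6.68 and 6.74 in virgin and 9.06, 8.56 and 7.84 in pregnant lung, with no overlap. The change was 1.56 ± 0.26 (log2, SE, n = 3, adjusted p = 0.0204), or 2.95-fold, the largest lung change of the 25 probe sets. The call was lost without virgin pool 2 or 3 or pregnant pool 1 or 2 (adjusted p = 0.123, 0.117, 0.0761 and 0.08), with changes of 1.28 to 1.53, and with lung arrays fitted alone (0.0736) or with a variance trend and robust moderation (0.069). In liver the values were 8.69, 8.71 and 8.26 in virgin and 9.32, 9.02 and 8.78 in pregnant pools. They did not overlap, and the change of 0.49 ± 0.26 did not pass (adjusted p = 0.306). The lung change exceeded the liver change by 1.08 (95% interval 0.30 to 1.85), which did not pass (adjusted p = 0.147), but passed without lung pregnant pool 3 (1.40, adjusted p = 0.0211). The other probe set, 1453410_at, had means of 2.09 to 2.49, below the median of all values in every group, and changed by 0.25 in lung.

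**Figure D2:**
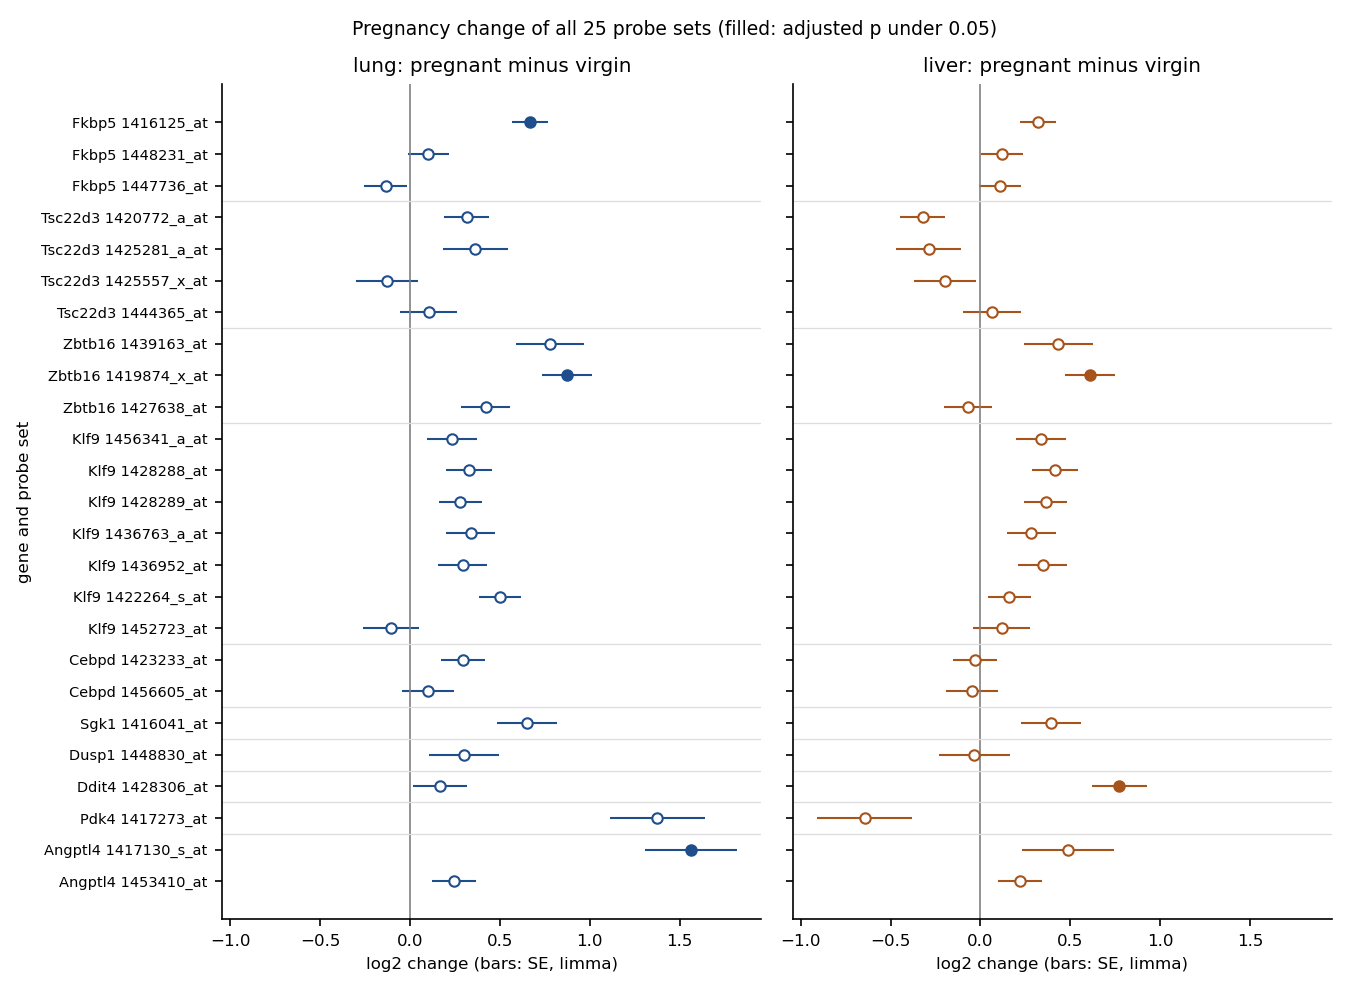
Log2 change from virgin to pregnant in lung (left) and liver (right) for each of the 25 probe sets, 1 row per probe set grouped by gene, with bars for the limma SE (n = 3 pools per group) and filled points for adjusted p under 0.05. The filled points are Fkbp5, Zbtb16 and Angptl4 in lung and Zbtb16 and Ddit4 in liver, and Pdk4 lies at 1.38 in lung and -0.64 in liver.

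Pdk4 is abundant in muscle and Angptl4 in fat, and the summed markers of these tissues varied across the lung pools. The summed level of 7 cardiac and skeletal muscle markers was 3538, 3209 and 2871 in virgin pools 1 to 3 and 4701, 5093 and 1457 in pregnant pools 1 to 3. None of the 7 passed in lung, and 1 of them had a mean below the median of all values there. Of 4 measured adipocyte markers 0 passed, 3 lay below that median, and the sum was 205.3 to 288.2 in virgin and 282.3 to 498.2 in pregnant lung. Neutrophil markers had sums of 4648 to 6854 in virgin and 8984 to 15330 in pregnant lung, and 1 of the 4 measured, S100a9, rose (by 1.07, adjusted p = 0.0204). Their part in the values of the response genes was not tested.

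The pregnant lung pools themselves differed in a shared order. Taking for each gene the probe set with the highest mean, pregnant lung pool 3 was the lowest of the 3 pregnant pools for 8 of the 10 genes, the exceptions being Sgk1 and Dusp1. Over all genes that pool was the lowest for 35.2%. Pregnant pool 1 was the highest for 7 of the 10, where it was so for 35.1% of all genes. In liver no pregnant pool was the lowest for more than 4 of the 10 genes, and pregnant pool 3 was the highest for 5, where it was so for 40.9% of all genes. Without lung pregnant pool 3 the number of the 25 probe sets called in lung was 5 in place of 3. Without virgin pool 3, pregnant pool 1 or pregnant pool 2 it was 0, and without virgin pool 1 or 2 it was 1.

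Probe sets of a gene disagreed at low levels and also above them, as for Fkbp5. Of the 25, 4 had means below the median of all values in every group, 1 each of Fkbp5, Tsc22d3, Klf9 and Angptl4, and 2 of these 4 had a negative lung change. Among the other 21, 20 had a positive lung change, the exception being Tsc22d3 1425557_x_at. Non-overlapping groups were seen for 13 of them, all higher in pregnant lung. Most of the 13 were probe sets of Klf9 and Zbtb16, so they do not stand for 13 separate genes. Over all probe sets, dim ones included, 48.8% had a positive lung change and 7.24% lay higher without overlap. The shares among probe sets of like level were not computed. With the mean of all its probe sets Fkbp5 changed by 0.21 in lung and did not pass (adjusted p = 0.341), whereas Zbtb16 changed by 0.69 and passed (adjusted p = 0.0245). For Klf9 this mean passed in liver (0.288, adjusted p = 0.0423) but not in lung.

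**Figure D3:**
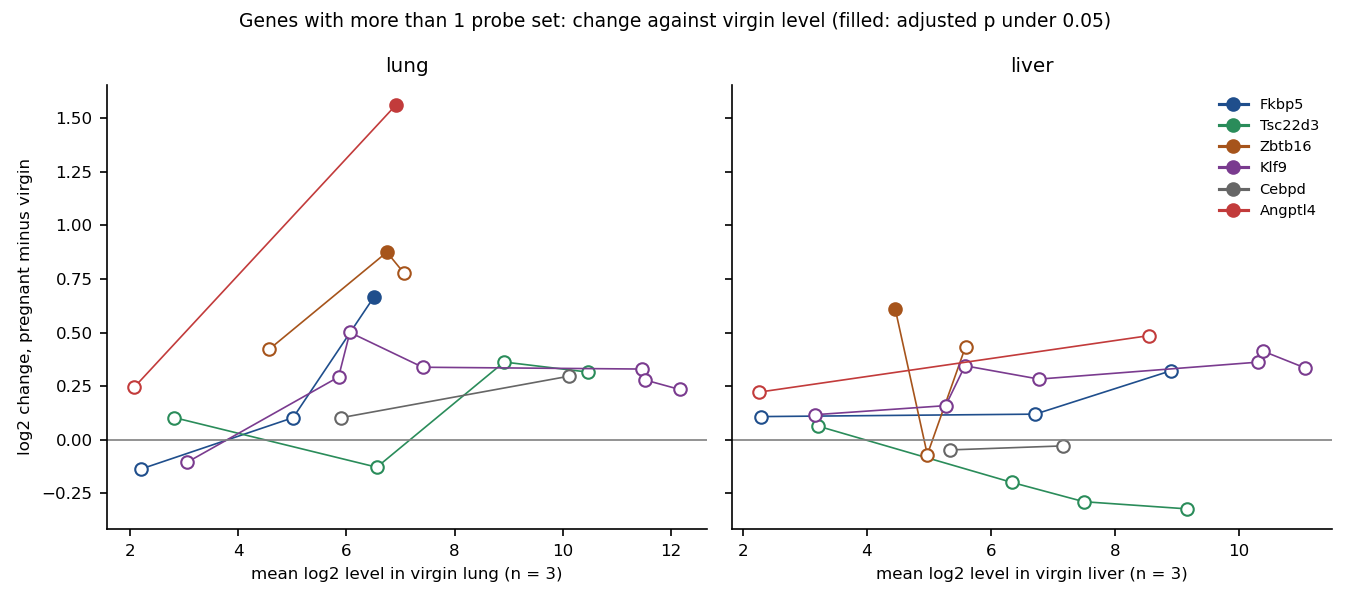
Log2 change from virgin to pregnant (vertical axis) against the mean log2 level in virgin tissue (horizontal axis, n = 3) for the 21 probe sets of the 6 genes with more than 1, with lung on the left and liver on the right; lines join the probe sets of a gene and filled points passed the test. In lung the lowest probe sets of Fkbp5, Klf9 and Angptl4 have changes of -0.14, -0.11 and 0.25, below those of the brighter probe sets of the same gene. For Tsc22d3 the lowest, 1444365_at at 0.10, lies above the brighter 1425557_x_at at -0.13.

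Between the virgin tissues 19 of the 25 probe sets differed, where 55.9% of all probe sets did. In lung 14 were higher and 5 lower, where 26.2% and 29.7% of all probe sets were. Cebpd, Dusp1 and Sgk1 were higher in lung by 2.95 ± 0.12, 2.55 ± 0.20 and 2.04 ± 0.17 (log2, SE, n = 3, adjusted p = 9.92e-12, 1.85e-08 and 3.95e-08). Ddit4, Tsc22d3 (1420772_a_at), Zbtb16 (1439163_at) and Klf9 (1456341_a_at) were higher in lung by 1.45, 1.30, 1.47 and 1.10. Fkbp5 and Angptl4 were lower in lung, with differences of -2.38 ± 0.10 and -1.63 ± 0.26 (adjusted p = 1.46e-11 and 6.18e-05). Zbtb16 1427638_at went the other way from the other probe sets of its gene and was lower in lung, with a difference of -0.40 (adjusted p = 0.0219). That call was lost without liver virgin pool 3 (-0.239, adjusted p = 0.123), without lung virgin pool 1 (0.0691) or 2 (0.0711) and without both liver pools 3 (0.0868). Tsc22d3 1444365_at likewise went against the other probe sets of its gene (-0.40, adjusted p = 0.0463). It lay below the median of all values in every group, and its call was lost in 7 of 16 alternatives. Pdk4 differed by 0.54 (95% interval -0.02 to 1.11) and did not pass (adjusted p = 0.0943), but passed without liver virgin pool 2 (0.74, adjusted p = 0.0417) and with the virgin arrays alone (0.0296).

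The order of the 4 groups follows from these values. For Cebpd, Dusp1, Sgk1, Tsc22d3, Klf9, Zbtb16 and Ddit4 all 6 lung pools lay above all 6 liver pools at the probe set with the highest mean. For Fkbp5 all 6 liver pools lay above all lung pools, with virgin below pregnant pools in both tissues, although the liver change did not pass in the main fit. For Angptl4 virgin lung was lowest, and pregnant lung, at 8.49 ± 0.61 (SD, n = 3), overlapped virgin liver at 8.55 ± 0.25. For Pdk4 pregnant lung was highest at 7.65 ± 0.53, followed by virgin lung at 6.27 ± 0.33, virgin liver at 5.73 ± 0.35 and pregnant liver at 5.09 ± 0.43, and each of the last 3 overlapped its neighbour.

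Receptor and hormone handling genes were read from a list of 18, of which 13 were measured here by the probe set of each gene with the highest mean. In lung 0 of the 13 rose and 0 fell, where 0.33% of all genes changed, and their median log2 change was 0.06. In liver 2 rose, 2 fell and 9 did not pass, where 11.1% of all genes changed. These p-values are adjusted over all 45037 probe sets. Serpina6, which encodes the corticosteroid-binding globulin that carries the hormone in blood, had log2 values of 11.48, 11.76 and 11.56 in virgin and 14.02, 14.02 and 14.03 in pregnant liver. This was a rise of 2.42 ± 0.18 (adjusted p = 3.56e-07), and its lung change, at levels below the median of all values, was 0.73 and did not pass (adjusted p = 0.13), although it passed without pregnant lung pool 1 (0.953, adjusted p = 0.0273). H6pd, which supplies the cofactor for the enzyme that regenerates active hormone, rose in liver by 0.69 ± 0.10 (adjusted p = 0.000257).

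The receptor genes themselves were lower in pregnant liver. Nr3c1, the glucocorticoid receptor, had 9.02, 8.95 and 8.82 in virgin and 8.61, 8.56 and 8.50 in pregnant liver and fell by 0.37 (SE 0.10, adjusted p = 0.0248). Nr3c2, the mineralocorticoid receptor, fell by 0.49 (adjusted p = 0.0255). Both calls were lost with liver arrays fitted alone (adjusted p = 0.103 and 0.0699) and without both liver pools 3 (0.0516 and 0.14). The Nr3c1 call was also lost without virgin pool 1 or 2 or pregnant pool 2 or 3 (0.0952, 0.0717, 0.0585 and 0.0622). That of Nr3c2 was lost without virgin pool 1 or 3 or pregnant pool 1 or 3 (0.0943, 0.0667, 0.086 and 0.0791). Array weights lost both calls (0.0533 and 0.0547), and quantile normalization over all arrays lost that of Nr3c1 (0.0529). Of 19 alternatives, 9 lost the Nr3c1 call and 8 the Nr3c2 call. In lung Nr3c1 had a change of -0.16, with 9.45, 9.51 and 9.44 in virgin and 9.19, 9.34 and 9.39 in pregnant pools, and Nr3c2 one of -0.42, and neither passed (adjusted p = 0.829 and 0.284). The liver and lung changes of Serpina6 and H6pd differed (lung minus liver -1.70 and -0.68, adjusted p = 0.000951 and 0.00947), where 5.07% of all genes passed that test.

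Of 26 other genes that glucocorticoids are known to raise in some tissue, 25 were measured. In lung 0 rose and 0 fell, with a median log2 change of 0.28 over the 25 against -0.01 over all genes, and 20 were positive. In liver 6 rose, 2 fell and 17 did not pass, where 11.1% of all genes changed, with a median of 0.15. The 4 named next, all risers, had the largest called changes, and the 2 that fell changed by less. The metallothionein genes Mt2 and Mt1, which bind zinc, rose in liver by 1.82 and 1.61, Igfbp1, an insulin-like growth factor binding protein gene that insulin represses, by 1.71, and Gadd45b, a stress response gene, by 1.53 (adjusted p = 2.1e-05, 9.79e-06, 8.59e-06 and 1.53e-07). For all 4 the liver change exceeded the lung change (lung minus liver -1.42, -1.31, -1.38 and -1.20, adjusted p = 0.00814, 0.00342, 0.00336 and 0.000169). Of the same 25 genes 3 passed in the other direction, with a lung change above the liver change: Klf15 (0.75, adjusted p = 0.0351), Scnn1a (0.75, 0.0204) and Glul (0.53, 0.0478). The lung changes of these genes were 0.33, 0.03 and 0.30 and did not pass. Their mean liver levels were 9.18, 7.39 and 11.38 in virgin and 8.77, 6.68 and 11.15 in pregnant pools. Of all genes 5.07% passed this test of the difference. Mt2 changed by 1.56 within liver pools 1 and 2 and by 2.34 within pool 3.

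Genes that respond to signals shared with some of the members were read beside them. Of all genes, 0.33% changed in lung and 11.1% in liver, and the clock gene count in liver lay near that share. Of 13 measured PPAR-alpha and fasting genes 0 passed in lung, where Acot1 and Cpt1a, both of fatty acid breakdown, had changes of 0.99 and 0.62 (adjusted p = 0.0509 and 0.147). In liver 4 rose and 1 fell: Cyp4a14 fell by 3.91 while Vnn1 rose by 2.08, Fgf21 by 1.59 and Plin2 by 0.72. Fgf21 changed by 0.91 within liver pools 1 and 2 and by 2.94 within pool 3, and its call was lost with liver arrays alone (adjusted p = 0.0598). Of 16 immediate early genes, which also respond to tissue handling, 0 passed in lung (15 positive, median 0.33) and 6 rose in liver, among them Egr1 by 3.62 and Fos by 2.21, beside the Dusp1 liver change of -0.03. Of 17 clock genes, which follow the time of day, 0 passed in lung, and in liver Clock rose by 0.50 (adjusted p = 0.034) and Per3 fell by 0.76 (0.0238). The Clock call was lost without any 1 virgin liver pool (0.0797 to 0.0915), without pregnant liver pool 2 (0.0734) or 3 (0.112), without both liver pools 3 (0.174), with liver arrays alone (0.0783) and with array weights (0.0906). The Per3 call was lost without virgin liver pool 1 (0.0719) or 2 (0.0983), without pregnant liver pool 3 (0.083), without both liver pools 3 (0.0691), with array weights (0.0751) and for the mean of its probe sets (0.249). The part of these signals in the members' values was not tested.

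**Figure D4:**
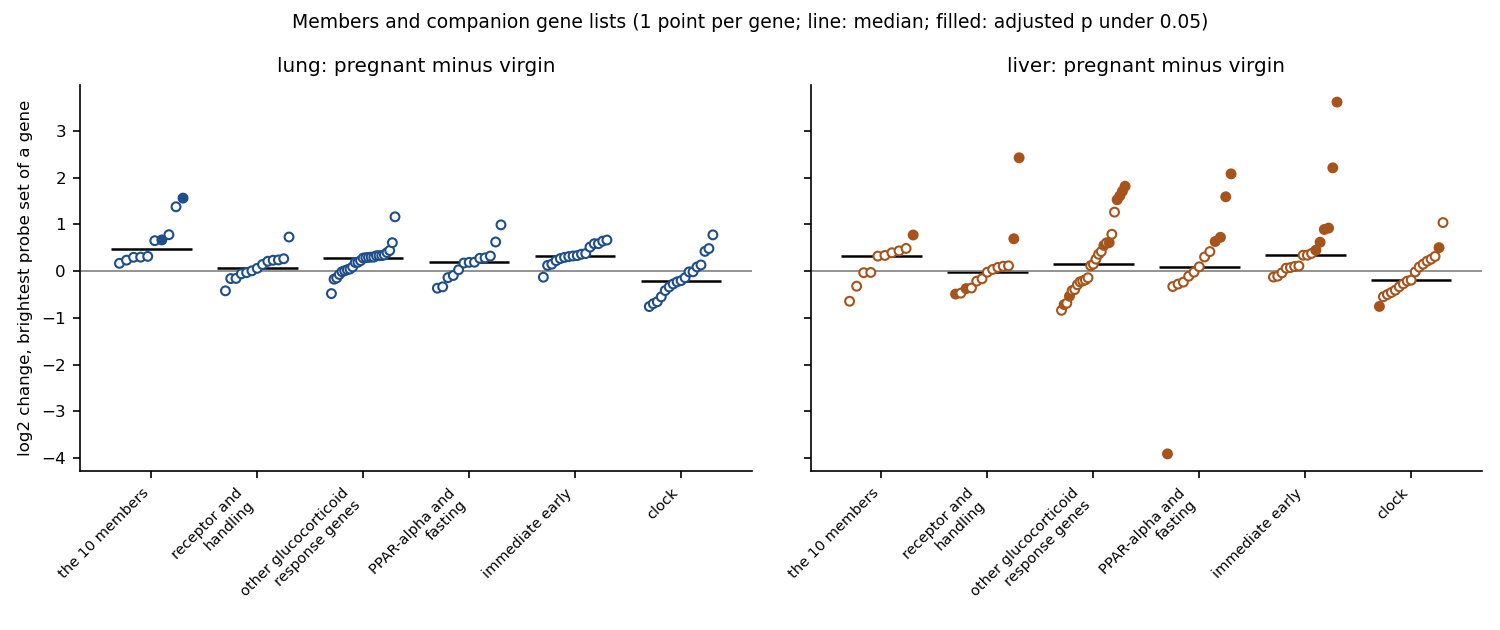
Log2 change from virgin to pregnant in lung (left) and liver (right), 1 point per gene at its probe set with the highest mean, for the 10 response genes and 5 further lists; points are sorted by value within a list, lines mark medians, and filled points passed the test. In lung the 10 genes have a median of 0.48 with 2 filled points, and 0 genes of the other 5 lists passed; in liver Egr1 at 3.62 and Cyp4a14 at -3.91 lie farthest from 0.

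The genes whose pattern was most like each member were taken from 5012 genes with a spread of at least 0.2 over the arrays, by Pearson's r of log2 values centred within each tissue over the 12 arrays. The arrays share the pregnancy groups, so these values are a description of the best of many matches. For Fkbp5 they were Hyal2 (0.944), Dpep1 (0.92) and Sgms1 (0.914), and for Angptl4 they were Sgms1 (0.955), Phkg1 (0.912) and Cd14 (0.911). Sgms1, a sphingomyelin synthase gene, was thus among the nearest for both. For Pdk4 the nearest were Pxdc1 (0.929), Mest (0.905) and Rhoj (0.887), for Sgk1 Marcks (0.932), Dll1 (0.925) and Podxl (0.918), and for Ddit4 Zkscan5 (0.958), Ttpal (0.949) and Nedd4l (0.948). For Zbtb16 they were Serpina1b (0.895), Serpind1 (0.89) and Slfn4 (0.869), for Tsc22d3 Npr3 (0.939), Tinagl1 (0.936) and Sephs2 (0.858), and for Klf9 Dock3 (0.937), Bach2 (0.895) and Syt17 (0.888). For Cebpd they were Glyat (0.939), Crem (0.879) and Rhoj (0.854), and for Dusp1 Wipf2 (0.92), Fam83f (0.908) and Spertl (0.865). No member was among the 3 nearest of another member.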

How the data were processed

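Per the submitters' processing notes, the deposited log2 expression values came from RMA in the affy package, run by the authors, without versions given. Which arrays were normalized together is not given in the sources used here. Each array held RNA of 2 pooled mice, and with 3 arrays a group it is their number that limits precision. After removal of 64 control probe sets, limma 3.58.1 (R 4.3.3) estimated the mean of each group for the other 45037, with no filter on level (8 residual and 6.59 prior degrees of freedom). The p-values of a contrast were adjusted by Benjamini-Hochberg over all 45037. Gene names came from the platform annotation. Genes of further lists were read at the probe set with the highest mean, and per list and comparison up to 4 called genes with the largest change, or else up to 2 with the smallest p, were available for naming, while marker genes, Klf15, Scnn1a and Glul were named after their values were seen. The members, lists, motifs and alternatives were chosen with earlier results of these data known. Tested on simulated data, the lung fit recovered 25% of log2 changes of 0.5 and 95.2% of changes of 1 (5.7% false calls). The liver fit recovered 45.8% and 91.7% (5.08%). Both simulations used the same mean levels and the same spreads, pooled over all groups, so these figures do not compare the tissues. They also held fewer changed probe sets than the 3675 called in liver and more than the 96 called in lung.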

Additional observations from a re-analysis of the deposited data

Results flagged for a closer look

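The pregnancy change of Pdk4 (1417273_at) differed between the tissues: the lung change minus the liver change was 2.02 (log2, limma adjusted p = 0.00619, n = 3 pools per group), from changes of 1.38 in lung and -0.64 in liver. The pregnant pools lay above all virgin pools in lung and overlapped them in liver. With each array left out in turn the difference was 1.78 to 2.30 and passed in all 12 fits.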

How the results depend on the processing

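Of 2646 single values under alternatives, 2464 kept direction and side of the threshold, 67 lost and 63 gained a call, and 52 turned direction, of which the lowest adjusted p was 0.604 and the largest size 0.197 (log2). The cause of these changes was not tested, except that tests per gene and tests without some probe sets hold fewer features. Also, the pool block described below compares the virgin tissues at pool 1 only. In lung, where 96 probe sets were called, 3 of them among the 25 of the response genes, the count was 153 without dim probe sets, 250 with a variance trend and 366 with array weights, which called 6 of the 25. In liver, with 3675 and 2 called, it was 2211 for gene means, 2449 without shared-sequence suffixes and 2025 with liver arrays alone, and of the response genes' probe sets, fewer than 25 where some are left out, 1 was called without those suffixes, 4 without dim probe sets, 4 with quantile normalization within tissue, 5 with a variance trend and 4 without both liver pools 3. The difference between tissues, with 1542 and 1 called, had 1007 without those suffixes, and 2 of the response genes' probe sets passed with the brightest per gene (10 tested), without dim probe sets (21 tested) and with a variance trend (25 tested). Virgin lung against liver, with 25158 and 19 called, had 12501 (9 of the 10 genes) with the brightest probe set, 12292 (9) with gene means and 12 of the response genes' probe sets without those suffixes.

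Leaving out single arrays gave 34 to 116 calls in lung (0 to 5 of the 25), 2652 to 3773 in liver (1 to 5), 1107 to 1592 for the difference (1 to 3) and 22140 to 23881 between tissues (17 to 20).

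The labels give each group pools 1 to 3 without saying that numbers are shared, and deviations of same-numbered pools correlated at -0.01 to 0.07 in lung and -0.08 to 0.11 in liver. With the pool number as a replicate block 88 probe sets were called in lung, 3 of them among the 25. For the difference 2 of the 25 were called. Under this block Pdk4 passed in lung (adjusted p = 0.00114) and liver (-0.644, 0.00719), and Angptl4 1417130_s_at for the difference (0.0185). Lost were Zbtb16 1419874_x_at in lung (0.0554) and Nr3c1 (0.0505) and Nr3c2 (0.0669) in liver. Between the virgin tissues this block compares the levels of pool 1, so its values there do not test the tissue difference. Klf9 1452723_at turned to 0.021 in that comparison.

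Other turned values were those of Fkbp5 1448231_at for the difference (0.014 with centred arrays, 0.013 with array weights, 0.14 without both liver pools 3), Dusp1 in liver (0 and 0.003 with quantile normalization over all arrays and within tissue), and between tissues Fkbp5 1447736_at (0.011) and Tsc22d3 1425557_x_at (-0.024) with quantile normalization. Without both liver pools 3 these were Fkbp5 1448231_at (-0.037) and Tsc22d3 1444365_at (-0.093) in liver, Tsc22d3 1425557_x_at (-0.079), Klf9 1436763_a_at (-0.055) and Angptl4 1453410_at (-0.075) for the difference, and Fkbp5 1447736_at (0.041) between tissues.

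Leaving out single arrays also turned small values. In lung these were Tsc22d3 1425557_x_at (-0.28 to 0.106) and Cebpd 1456605_at (0 to 0.218). In liver they were Cebpd 1423233_at (-0.072 to 0.056) and 1456605_at (-0.208 to 0.072), Dusp1 (-0.279 to 0.197), Fkbp5 1447736_at (-0.007 to 0.233), Klf9 1452723_at (-0.097 to 0.257), Tsc22d3 1444365_at (-0.142 to 0.196) and Zbtb16 1427638_at (-0.159 to 0.089). For the difference they were Angptl4 1453410_at (-0.074 to 0.154), Fkbp5 1448231_at (-0.088 to 0.085), Tsc22d3 1425557_x_at (-0.081 to 0.304) and 1444365_at (-0.092 to 0.246), and Klf9 1428288_at (-0.171 to 0.064), 1428289_at (-0.188 to 0.033), 1436763_a_at (-0.099 to 0.177), 1436952_at (-0.166 to 0.067) and 1456341_a_at (-0.252 to 0.021). Between tissues they were Fkbp5 1447736_at (-0.2 to 0.041) and Tsc22d3 1425557_x_at (-0.008 to 0.377).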
